A study of Mus musculus with 6 samples.

Results

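Centrosome and centriolar satellite genes of mouse testis were followed across RNA brought down by an antibody against MVH, RNA brought down by normal rabbit IgG, and total RNA. The set took in every probe whose platform symbol, or its current symbol, began with Cep and a digit, with Tubg or with Haus and a digit, together with Pcm1, Pcnt, Nin, Ninl, Cntrob, Cntln, Akap9, Aspm, Cdk5rap2, Ofd1, Bbs4, Sass6, Plk4 and Ssx2ip. This gave 59 of the 23473 probes on the array, and 57 of the 16390 gene symbols. The platform symbol itself matched for 32 of them, and 27 matched through the current symbol only. Ninl had no probe under that name, and Cep350 and Tubgcp6 had 2 probes each. The gene now called Cntrl entered through its platform symbol, Cep110.

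MVH (also DDX4) is a helicase of the DEAD-box family that acts on RNA in germ cells. The tissue in every group was testis of C57/BL6 mice, with no further genotype or treatment in the labels, and the age was not given in the sources used here. For the MVH and the IgG precipitates, dispersed testis cells were lysed, the cleared lysate was incubated with beads alone and then with antibody overnight, and RNA was extracted from washed beads. The labels' protocols mention no crosslinking step. Total RNA, labelled WCE, was taken with no antibody. Each group had 2 arrays, numbered 1 and 2. Whether a group's arrays stand for separate animals is not in the labels, and a p-value here measures only how far these samples spread, which may be technical error alone.

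The centrosome is a pair of centrioles embedded in a protein matrix, from which the gamma-tubulin ring complex starts microtubules. Centriolar satellites are small granules, built on the scaffold PCM1, that carry proteins to the centrosome and to the base of the cilium. In the testis, centrosomes form the poles of the mitotic and meiotic spindles, and in the spermatid a centriole becomes the base from which the sperm tail grows.

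Values below are intensities scaled to a median of 30 on every array, as log2 for differences. They are relative to the median RNA of each array, since RNA was amplified and the amount recovered was not measured. Of the 59 probes, 53 had a value on all 6 arrays. The other 6 were each blank on 1 array: Aspm and the dimmer Tubgcp6 probe on total RNA 2, Cep120 on MVH precipitate 1, and Cep250, Cntrl and the dimmer Cep350 probe on IgG precipitate 2. A further limit is that 11 probes, among them Pcnt, Akap9, Nin, Cep250, Cep68 and Tubgcp4, lay under 10 on every array where they were listed. Little could thus be measured for them. The SD of the log2 difference between the 2 arrays of a group was 0.55 for these genes in the MVH precipitate, 0.54 in the IgG precipitate and 0.45 in total RNA. Ddx4, the mRNA of MVH itself, had intensities of 1396 and 1559 in the MVH precipitates, 1468 and 1391 in the IgG precipitates and 860 and 1306 in total RNA.

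The comparison of the MVH with the IgG precipitate asked which centrosome RNAs came down with the helicase rather than with beads and control antibody. Genes of different parts of the centrosome were higher with MVH: the spindle pole gene Aspm, the appendage gene Cep89, the satellite gene Cep72, the duplication kinase gene Plk4, Cep57l1 and the gamma-tubulin complex gene Tubgcp4. Cep85 and Cntrob were lower. In counts, 6 of the 55 centrosome probes tested were higher (10.9%, against 3.82% of all probes tested) and 2 were lower (3.64%, against 4.15%), by limma at an adjusted p under 0.05, and the other 47 did not pass. Without regard to the threshold, both MVH arrays lay above both IgG arrays for 19 probes (34.5%, against 29.9% of all probes) and below them for 14 (25.5%, against 23.8%). Of the 55 probes 29 had a difference above 0, against 55% of all probes. The median difference of the 55 probes was 0.11, against 0.07 for all probes. With no centring it became 0.38, where that of all probes became 0.34. Without MVH precipitate 2 it was -0.11, below the 0.05 of all probes.

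Aspm encodes a protein of spindle poles that is known for its role in brain size. Its intensity was 21.5 and 19.2 in the MVH precipitates but 2.8 and 2.88 in the IgG precipitates. It was 3.4 on total RNA 1 and blank on total RNA 2. The 2 MVH arrays thus stood together above every other array with a value. The difference was 7.15-fold between the precipitates (log2 2.84 ± 0.28, SE, n = 2 arrays a group, limma adjusted p = 0.0148). The IgG values lay close to the lowest listed on those arrays, so the size is uncertain, and it was 1.83 with an offset of 4 added before log2.

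Cep89 encodes a protein of the distal appendages, with which the mother centriole docks to the membrane. Its intensity was 163 and 237 in the MVH precipitates and 68.9 and 28.4 in the IgG precipitates, with 124 and 97.8 in total RNA. The MVH arrays were the highest and the IgG arrays the lowest, with total RNA between them. Cep89 differed 4.45-fold between the precipitates (log2 2.15 ± 0.43, SE, n = 2 arrays a group, limma adjusted p = 0.0259). The IgG arrays were uneven, and the difference was 1.51 without IgG precipitate 2 and 2.79 without IgG precipitate 1.

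Cep72, whose product sits on satellites and helps to bring gamma-tubulin to the centrosome, had intensities of 58.8 and 71.2 in the MVH precipitates, 21.8 and 14.1 in the IgG precipitates and 26 and 24 in total RNA. It was higher with MVH by 1.88 ± 0.30 (SE, n = 2 per group, limma adjusted p = 0.0175), and both MVH arrays also lay above both total RNA arrays. Plk4, the kinase that starts the growth of a new centriole, had 91.1 and 146 in the MVH precipitates, 41.1 and 48.9 in the IgG precipitates and 52.7 and 57.8 in total RNA. It was higher by 1.36 ± 0.31 (limma adjusted p = 0.0358). In each of these genes no array of the IgG precipitate or of total RNA reached the lower MVH array.

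Cep57l1, a relative of the centriole protein gene Cep57, had 191 and 325 in the MVH precipitates, 113 and 68.1 in the IgG precipitates and 128 and 102.5 in total RNA. It was higher by 1.51 ± 0.37 (limma adjusted p = 0.0423). The difference was 1.12 without MVH precipitate 2 and 1.89 without MVH precipitate 1. Cep57 itself differed by 0.14 (adjusted p = 0.831). Tubgcp4, a subunit of the gamma-tubulin ring complex, was dim, at 7.2 and 8.6 in the MVH precipitates, 3.6 and 2.45 in the IgG precipitates and 5.1 and 6 in total RNA. It was higher by 1.41 ± 0.30 (limma adjusted p = 0.0306), a size that fell to 0.76 with an offset of 4 because all its values were low.

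Cep85 showed the largest difference in the other direction. In human cells its product restrains the kinase NEK2, which releases the link between centrosomes. Its intensity was 672 and 587 in the MVH precipitates but 2448 and 2917 in the IgG precipitates, and it was 580 and 859 in total RNA. The MVH and total RNA arrays overlapped, and the IgG arrays stood apart above both. The difference between the precipitates was -2.09 ± 0.30 (SE, n = 2 per group, limma adjusted p = 0.0167), 4.25-fold lower with MVH.

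Cntrob encodes centrobin, a protein of the daughter centriole that is needed in the rat for the joining of sperm head and tail. It had 191 and 190 in the MVH precipitates, 447 and 569 in the IgG precipitates and 222 and 257.5 in total RNA. It was lower with MVH by a difference of -1.41 ± 0.27 (limma adjusted p = 0.0248). With no centring the difference was -1.14 and did not pass (adjusted p = 0.108). As with Cep85, the IgG arrays were the high ones, and the MVH arrays lay slightly below total RNA.

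**Figure D1:**
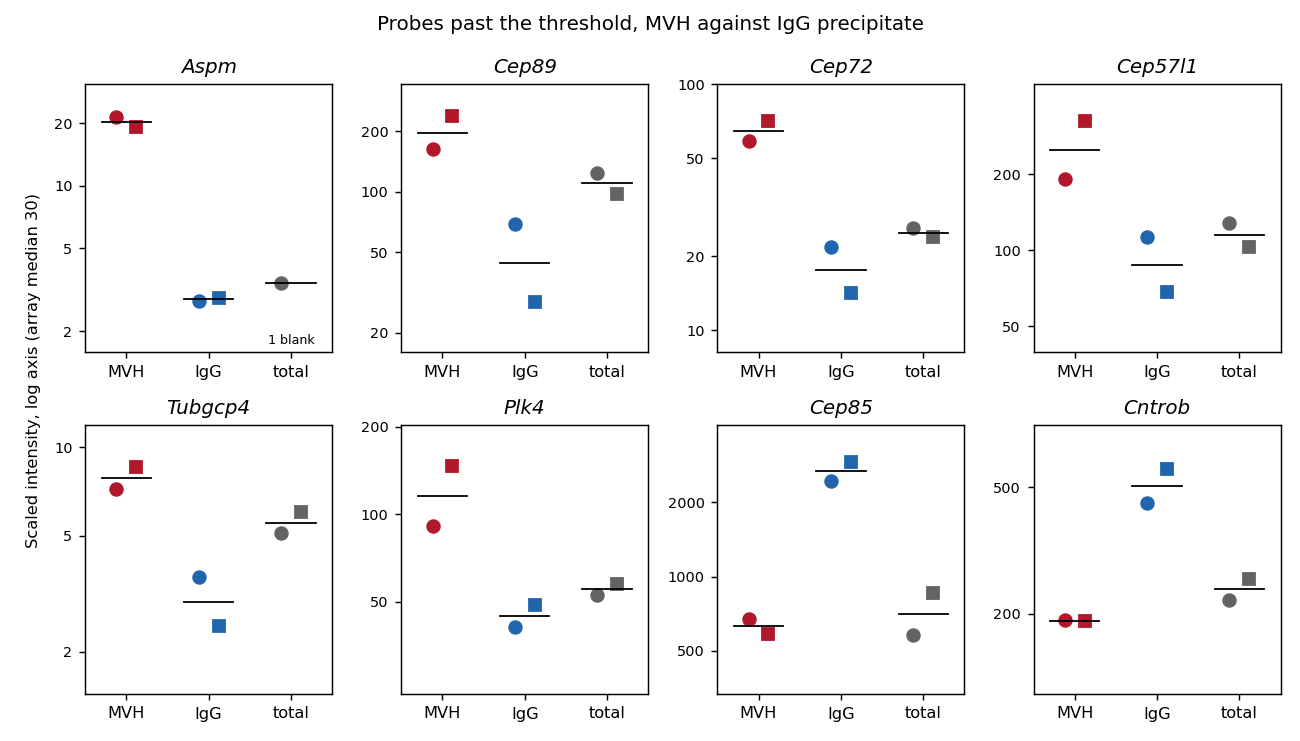
Scaled intensity (log axis, array median 30) of the 8 centrosome probes past the threshold between the MVH and IgG precipitates. Circles are arrays 1, squares arrays 2 and lines geometric means (n = 2 per group, 1 blank for Aspm in total RNA). For the first 6 genes both MVH points lie above both IgG points, while for Cep85 and Cntrob both IgG points lie above all others.

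The summed Leydig and peritubular markers were, like Cep85 and Cntrob, high on the IgG arrays. Of 5 Leydig cell markers measured, 4 were lower with MVH than with IgG, with a summed intensity of 490 to 509 in the MVH precipitates, 1884 to 2997 in the IgG precipitates and 658 to 1129 in total RNA. Of 4 peritubular markers 2 were lower, with sums of 336 to 534, 1458 to 3153 and 399 to 492. None of the markers was listed at 0. Spermatid markers, with 0 of 8 past the threshold by limma and 2 at an unadjusted p under 0.05, summed to 239783 to 318463 with MVH, 224572 to 304399 with IgG and 269784 to 290189 in total RNA, and 1 of 6 spermatocyte markers was higher. Of 7 Sertoli cell, 3 macrophage and 4 spermatogonial markers tested 0 passed by limma, with 1, 1 and 2 at an unadjusted p under 0.05. Among them, 5 of 7 Sertoli cell and 3 of 3 macrophage markers had a value above 0 for MVH against IgG. Yet the Sertoli cell sums, mostly Clu, were 3388.5 to 3478 with MVH, 5366 to 6034 with IgG and 4503 to 4801 in total RNA. The spermatogonial sums, mostly Uchl1, were 1280 to 1315, 2204 to 3031 and 1812 to 2198 in those groups. The Sertoli cell sums were thus also highest on the IgG arrays. Of the spermatogonial sums, that of IgG precipitate 2 (2204) lay barely above that of total RNA 2 (2198). It held 27.8 from Kit, against 6.4 in total RNA 2, and Kit was blank on IgG precipitate 1. What these shifts contribute to Cep85, Cntrob and the other centrosome values was not tested. In total RNA of a whole tissue, fewer cells of a type and less RNA per cell cannot be told apart. The precipitates hold only RNA kept on the beads, so their sums do not count cells.

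Leaving out single arrays changed the counts of calls among all probes and among the centrosome probes alike. The counts of centrosome probes higher and lower were 1 and 0 without MVH precipitate 1, 0 and 0 once MVH precipitate 2 or either total RNA array was left out, 5 and 2 without IgG precipitate 1, and 2 and 1 when only IgG precipitate 2 was dropped. Over all probes the same fits called 94 and 16 without MVH precipitate 1, 0 and 0 if MVH precipitate 2 or a total RNA array was left out, 593 and 424 without IgG precipitate 1, and 508 and 819 with IgG precipitate 2 left out, against 824 and 895 over all arrays. At an unadjusted p under 0.05, which 25.5% of all probes reached, limma gave 14 higher and 10 lower over all arrays. Total RNA adds to the comparison of the precipitates a measure of spread and nothing else. Each of the 8 genes kept its direction in each of these fits, but none of them passed in every fit.

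Among the genes that did not pass, several lay near the threshold. Cep55, needed for the final cut between daughter cells, had 22.1 and 35.3 with MVH, 12.5 and 11.8 with IgG, beside 14.5 and 18.4 in total RNA (1.20 ± 0.31, limma adjusted p = 0.0516). Cep19, a ciliary protein gene without which mice become obese, had 1559 and 1616 with MVH, 854 and 736 with IgG, beside 1461 and 1436 in total RNA (1.00 ± 0.26, adjusted p = 0.0512). In both genes the lower MVH array exceeded the higher IgG array. Cep70, whose product binds gamma-tubulin, had 50 and 130.2 with MVH, 30.3 and 29.7 with IgG, beside 21.9 and 18.1 in total RNA (1.43 ± 0.42, adjusted p = 0.0733). MVH precipitate 2 decided its size, since without that array the difference was 0.74.

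The gamma-tubulin complex held values on both sides. Tubg1 and Tubg2 encode gamma-tubulin itself, are neighbours in the RefSeq annotation of GRCm38.p6, and are close in sequence, so that a probe could bind RNA of both. Tubg1 had 236 and 183 in the MVH precipitates, 119 and 117 in the IgG precipitates and 173 and 162 in total RNA, a difference of 0.81 ± 0.27 between the precipitates (limma adjusted p = 0.101). Tubg2 had 151 and 126 with MVH, 85.1 and 73.1 with IgG, beside 135 and 115 in total RNA, a difference of 0.80 ± 0.27 (adjusted p = 0.106). In each of these genes the groups did not overlap between the precipitates, yet neither passed.

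The larger subunits that form the wall of the ring had values below 0 apart from Tubgcp4. Tubgcp2 had 568 and 507 with MVH against 1166 and 874 with IgG (-0.91, limma adjusted p = 0.0838), and Tubgcp3 had 22.3 and 20.6 against 33.6 and 38.8 (-0.75, adjusted p = 0.113). Tubgcp5 differed by -0.52. The brighter Tubgcp6 probe had 15.1 and 7.2 with MVH, 29 and 29 with IgG, beside 8.2 and 15 in total RNA (-1.48, adjusted p = 0.0644), whereas the dimmer one differed by -0.35. Over the 8 probes of this complex the median was -0.43, and it was -0.17 with no centring.

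Augmin, the complex that lets new microtubules branch from existing ones, had 0 of 7 probes past the threshold by limma, with 1 at an unadjusted p under 0.05. Haus7 (0.63), Haus8 (0.58) and Haus4 (0.36) had values above 0, and Haus5 (-0.69), Haus2 (-0.59), Haus1 (-0.52) and Haus6 (-0.03) below it. Haus1, a bright probe, had 3634 and 5650 in the MVH precipitates, 6127 and 6872 in the IgG precipitates and 4473 and 6126 in total RNA. Its MVH arrays lay below its IgG arrays by less than the 2 MVH arrays lay apart.

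The matrix scaffold genes showed little that could be measured between the precipitates. Pcnt, the pericentrin gene, had 5.7 and 8.3 with MVH, 7.6 and 5.91 with IgG, beside 9 and 5.5 in total RNA (0.04, limma adjusted p = 0.962), and Akap9, which anchors protein kinase A, had 2.1 and 4, 4.5 and 3.17, and 2.5 and 5.3 in those groups (-0.38, adjusted p = 0.644). Both probes were dim. Cep192, which recruits the matrix for mitosis, differed by -0.06. Cdk5rap2, whose product activates the gamma-tubulin complex, differed by 0.54 (adjusted p = 0.3).

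Of the other duplication genes, Sass6, which builds the cartwheel at the core of a new centriole, had 669 and 728 in the MVH precipitates, 326 and 518 in the IgG precipitates and 413 and 473 in total RNA (0.77 between the precipitates, limma adjusted p = 0.158). Cep135, a further part of the centriole core, had 30.5 and 9.2 with MVH, 59.1 and 31.7 with IgG, beside 29.5 and 14.3 in total RNA (-1.37 ± 0.59, adjusted p = 0.185). Cep97, which caps centrioles, had 6.6 and 10 with MVH, 19.6 and 15.9 with IgG, beside 7.5 and 10.2 in total RNA (-1.12, adjusted p = 0.0667). Cep63, whose loss makes male mice infertile, differed by 0.11 and Cep295 by -0.29.

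Appendage genes other than Cep89 ranged from -0.92 for Cep164 to 1.14 for the dim Cep170. Cep164, needed for a cilium to start, had 2188 and 1042 with MVH against 4274 and 1910 with IgG, with overlapping groups (limma adjusted p = 0.264). Cep83, which starts the assembly of the distal appendages, had 1380 and 1763 with MVH, 1304 and 2441 with IgG, and on the total RNA arrays 804.5 and 885 (-0.19 between the precipitates, adjusted p = 0.781). Cep128 differed by 0.31 and the brighter Cep350 probe by 0.70, while the dimmer one could not be tested. Nin, the ninein gene, whose product anchors microtubules, had 5.3 and 7.4 with MVH, 6.2 and 4.62 with IgG, beside 4.8 and 7.2 in total RNA (0.23, adjusted p = 0.724).

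The remaining genes, most of them with roles outside these groups or known in less detail, spanned -0.61 for Cep162 to 1.07 for Cep78. Cep162, a protein gene of centriole ends that takes part in the start of cilia, had 424 and 549 in the MVH precipitates, 634 and 851 in the IgG precipitates and 354 and 382 in total RNA (limma adjusted p = 0.232 between the precipitates). Its groups stood in the order IgG, MVH, total RNA without overlap. Cep78, mutated in a human disease of eye and hearing, was dim, at 14.1 and 17.2, 9.1 and 6.06, and 9.8 and 12.8 with MVH, with IgG and in total RNA (adjusted p = 0.0715). Cep112, the brightest probe of the set, had 8800 and 13105 with MVH, 5546 and 9546 with IgG, beside 7735 and 9901 in total RNA, with overlapping groups (0.56, adjusted p = 0.369). Cep95 (-0.04), Cep20 (-0.18) and Cep41 (0.18) differed little beside their standard errors of 0.30 to 0.32.

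The comparison of the MVH precipitate with total RNA asked which centrosome RNAs were enriched relative to their abundance. Within the set, Pcm1 and Cep290, both satellite genes, held the largest differences here. By limma 0 of 56 centrosome probes passed as higher (against 0.00459% of all probes) and 0 as lower (against 0.00918%). In either direction 0.0138% of all probes passed. At an unadjusted p under 0.05 there were 15 higher and 2 lower, in all 17 against 8.93% of all probes. The difference was above 0 for 36, against 47.1% of all probes. Both MVH arrays lay above both total RNA arrays for 28 of the 56 (50%, against 18.7% of all probes) and below them for 8 (14.3%, against 21.6%). The median difference was 0.26, against -0.02 for all probes, and between 0.21 and 0.39 over the alternatives tried.

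Pcm1 is the scaffold on which satellites are built. Its intensity was 100.2 and 222 in the MVH precipitates and 109 and 123 in the IgG precipitates, against 16.7 and 22.9 in total RNA. All 4 precipitate arrays lay well above both total RNA arrays. The difference from total RNA was 2.93 ± 0.39 with MVH (SE, n = 2 per group, limma adjusted p = 0.104) and 2.57 ± 0.39 with IgG (adjusted p = 0.0542). The difference between the precipitates was 0.36 (adjusted p = 0.616), and without MVH precipitate 2 it was -0.21. Leaving out each array in turn, the difference of MVH from total RNA lay between 2.36 with MVH precipitate 2 left out and 3.51 with MVH precipitate 1 left out, and passed in 1 of 6 such fits, the one without MVH precipitate 1 (adjusted p = 0.0493).

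Cep290, whose product gates entry into the cilium and also lies on satellites, had 82.6 and 139 in the MVH precipitates, 59.3 and 89.7 in the IgG precipitates and 18.4 and 20.8 in total RNA. It differed from total RNA by 2.45 ± 0.35 with MVH (limma adjusted p = 0.104) and by 1.90 ± 0.35 with IgG (adjusted p = 0.059). Cep295, which turns a new centriole into one able to form a centrosome, had 57.1 and 88.3, 67.5 and 112, and 25 and 23.4 in the same groups, with differences of 1.55 with MVH (adjusted p = 0.234) and 1.84 with IgG (adjusted p = 0.059). For Cep290 and Cep295 every precipitate array exceeded both total RNA arrays, with either antibody.

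Ofd1, a satellite and centriole gene named for a ciliary disease, had 61.5 and 82.1 in the MVH precipitates, 130 and 127 in the IgG precipitates and 29.3 and 47.4 in total RNA. Its difference from total RNA was 0.93 with MVH (limma adjusted p = 0.421) and 1.79 with IgG (adjusted p = 0.0572). The 3 groups did not overlap, and the IgG arrays were the highest. Cep70 differed from total RNA by 2.02 with MVH (adjusted p = 0.211) and by 0.59 with IgG. The value with MVH was 1.33 once MVH precipitate 2 was left out and 2.71 once MVH precipitate 1 was left out.

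Not every satellite gene followed. Bbs4, which belongs to a ciliary transport complex as well, had 93 and 115 in the MVH precipitates, 193 and 102 in the IgG precipitates and 170 and 114 in total RNA, and differed from total RNA by -0.43 with MVH and 0.01 with IgG. Ssx2ip had 4399 and 5546, 8628 and 7422, and 5004 and 4823, with differences of 0.01 with MVH and 0.70 with IgG (limma adjusted p = 0.999 and 0.222). Cep131, needed for the tail of mouse sperm, differed by 0.33 and 0.66. Cep72 differed by 1.37 with MVH but by -0.51 with IgG, where both IgG arrays lay below both total RNA arrays. Over the 7 satellite probes the median difference from total RNA was 0.93 with MVH and 0.70 with IgG, against -0.02 and -0.1 for all probes. With no centring the satellite median for IgG was 0.44, where that of all probes was -0.37.

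**Figure D2:**
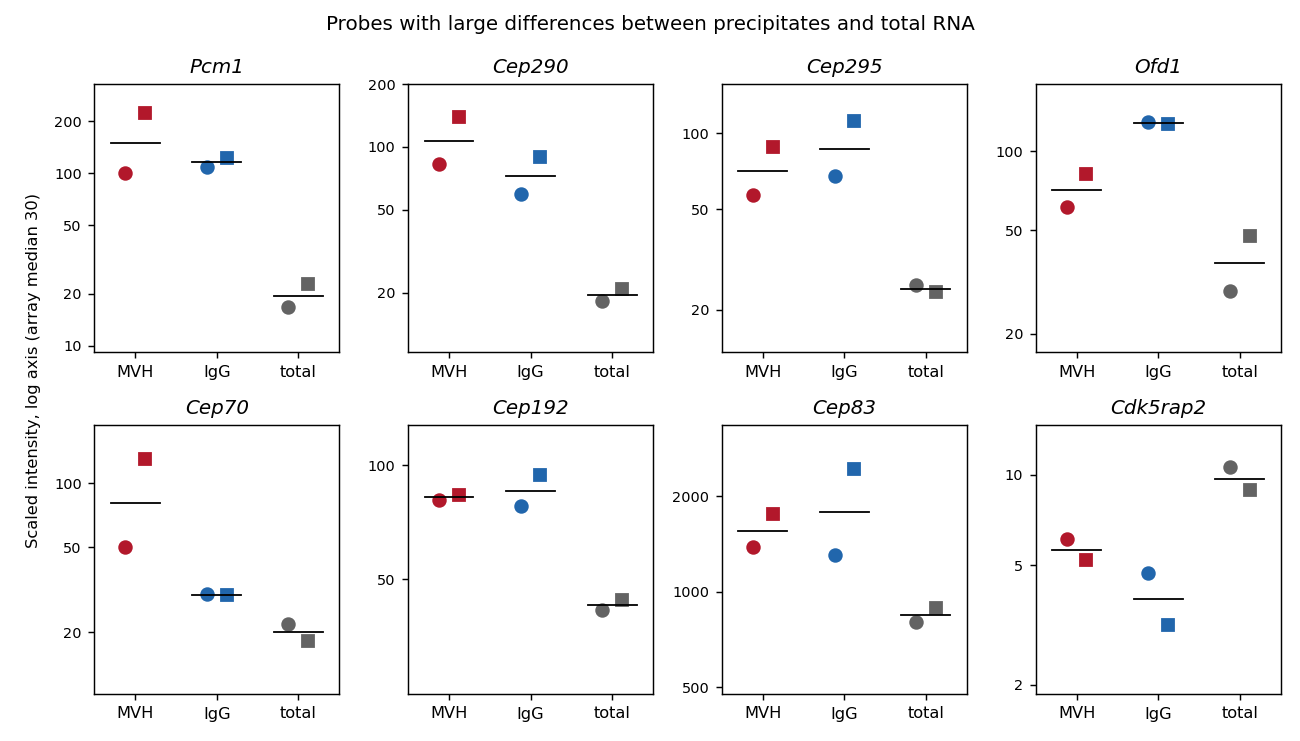
Scaled intensity (log axis, array median 30) of 8 centrosome probes with large differences between precipitates and total RNA, chosen after their values were seen. Circles are arrays 1, squares arrays 2 and lines geometric means (n = 2 per group). Pcm1, Cep290, Cep295, Ofd1, Cep70, Cep192 and Cep83 lie higher in all 4 precipitate arrays than in total RNA, while Cdk5rap2 lies lower.

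Cdk5rap2 lay on the other side. Its dim probe had 6.1 and 5.2 in the MVH precipitates, 4.7 and 3.17 in the IgG precipitates and 10.6 and 8.9 in total RNA. The precipitate arrays were all below the total RNA arrays, with differences of -0.79 with MVH (limma adjusted p = 0.478) and -1.33 with IgG (adjusted p = 0.0811). Cntrl, a protein gene of the mother centriole, was near the lower end of the listed values, at 1.7 and 2.2 with MVH, 2.4 on the IgG array that listed it, and 3.3 and 5.4 in total RNA (-1.13 for MVH against total RNA, adjusted p = 0.372). Of the linker that ties centrioles together, Cep250 had 1.7 and 4 with MVH, 3.2 on the listed IgG array and 4.3 on both total RNA arrays (-0.72). Cep68 had 3 and 4.4, 7.3 and 3.32, and 5.8 and 4.5 (-0.49). Cntln, which joins the same linker, lay on the other side, at 21.4 and 32.8 with MVH, 23.1 and 22.9 with IgG, beside 12.5 and 11.1 in total RNA, with differences from total RNA of 1.17 with MVH (adjusted p = 0.274) and 0.97 with IgG (adjusted p = 0.142).

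The comparison of the IgG precipitate with total RNA gave the background of beads and control antibody. By limma 0 of 54 centrosome probes passed, against 0.00934% of all probes. At an unadjusted p under 0.05 there were 19 higher and 6 lower, in all 25 against 18.2% of all probes. The difference was above 0 for 35, against 41.4% of all probes. Both IgG arrays lay above both total RNA arrays for 24 (44.4%, against 20% of all probes) and below them for 11 (20.4%, against 29.6%). The median difference was 0.18, against -0.10 for all probes. With no centring it was -0.09, where that of all probes was -0.37.

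Besides Pcm1, Cep290, Cep295 and Ofd1, the largest value was that of Cep85, at 1.92 ± 0.30 (SE, n = 2 per group, limma adjusted p = 0.0542), beside -0.17 for MVH against total RNA. Cntrob likewise differed by 1.08 with IgG (adjusted p = 0.0984) and by -0.33 with MVH. The largest negative values after Cdk5rap2 were those of Cep89 (-1.32, adjusted p = 0.157), Tubgcp4 (-0.90), Cep19 (-0.87) and Tubg2 (-0.66). The same genes had 0.84, 0.51, 0.13 and 0.14 for MVH against total RNA. These comparisons share arrays, so their values are set side by side and no agreement between them was tested.

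Calls against total RNA appeared under several other settings, among all probes too. Without the dimmest 25% of probes, 3 centrosome probes were higher with MVH (Pcm1, Cep290 and Cep70) and 9 with IgG (Pcm1, Cep290, Cep295, Ofd1, Cep85, Cep192, Cntrob, Tubgcp5 and the brighter Tubgcp6 probe), with 0 lower in either, by limma over the remaining probes. Over all probes that fit called 100 higher and 23 lower with MVH and 773 higher and 410 lower with IgG.

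**Figure D3:**
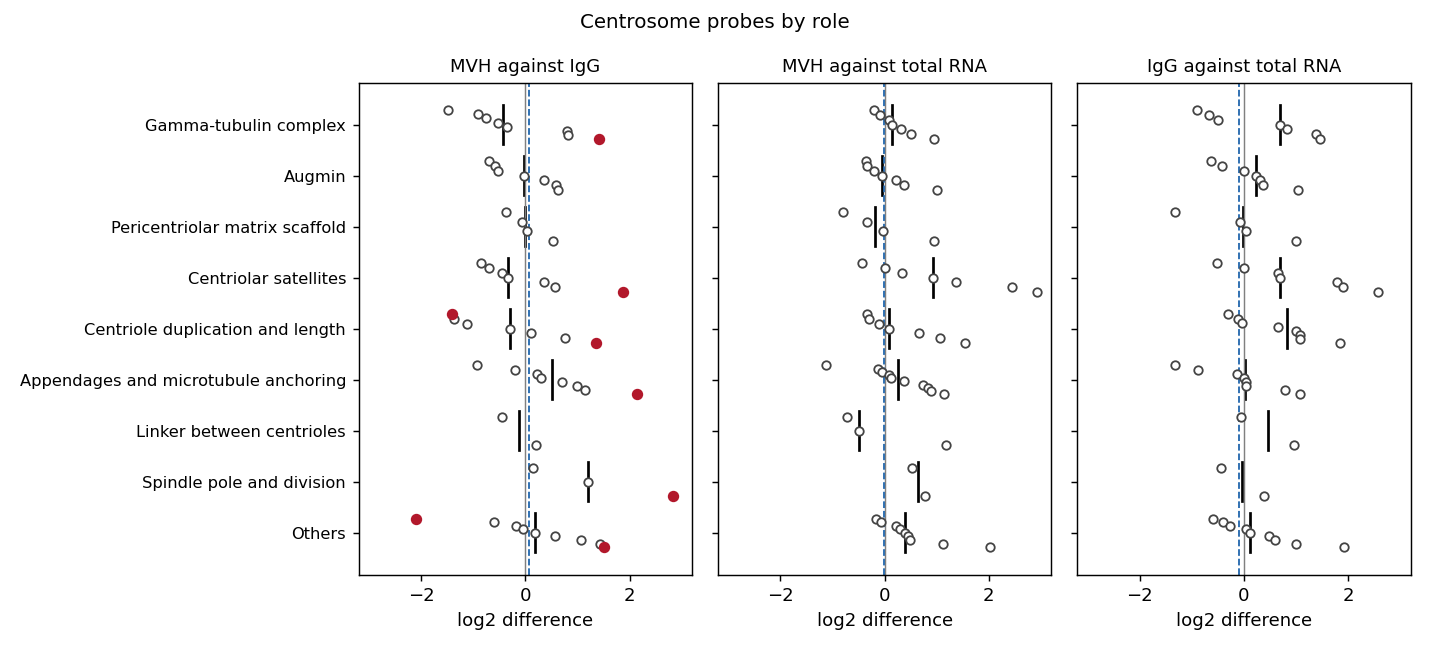
Log2 difference of each centrosome probe by role, for MVH against IgG, MVH against total RNA and IgG against total RNA. Filled points passed limma at an adjusted p under 0.05, open points did not, black bars are the median of a role, the grey line is 0 and the dashed line is the median of all probes. Satellite genes reach 2.93 in the middle panel, and the filled points lie only in the left panel.

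Other genes of the centrosome and centriole, 44 with a probe out of a list of 52, had a share of calls near that of all probes. Between the MVH and IgG precipitates 2 were higher and 2 lower of 44 (9.09%, against 7.97% of all probes), with a median of 0.09. Lrrcc1, a centrosomal protein gene, was higher by 1.62 (limma adjusted p = 0.0316) and the ubiquitin ligase gene Mib1 by 1.07 (adjusted p = 0.0489). Crocc, which encodes the rootletin of the ciliary rootlet, differed by -1.42 (adjusted p = 0.0339) and Tacc2, of a spindle protein family, by -1.18 (adjusted p = 0.0353). Against total RNA 0 of 43 passed by limma with either antibody. With MVH 8 of 43 had an unadjusted p under 0.05, which 8.93% of all probes reached. With IgG there were also 8 of 43, where 18.2% of all probes reached it. Both MVH arrays lay above both total RNA arrays for 16 (37.2%, against 18.7% of all probes) and below for 6 (14%, against 21.6%). Both IgG arrays lay above for 17 (39.5%, against 20%) and below for 8 (18.6%, against 29.6%). Lrrcc1 differed from total RNA by 2.72 with MVH and 1.10 with IgG (limma adjusted p = 0.104 and 0.152). Sclt1 differed by 2.39 and 1.66 (0.104 and 0.0631), so large differences were not confined to the set.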

How the data were processed

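The authors deposited 1 linear intensity per probe and array. Per the labels' protocols, aRNA amplified with aminoallyl nucleotides carried Cy5, and an array held a single sample. How arrays were scanned, corrected and scaled, and why cells are blank, is not given in the sources used here. As deposited, 5 arrays had a median intensity of 30 and IgG precipitate 2 of 20.8, with 508 to 1383 of 23473 probes blank. The number of arrays limits the precision.

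Platform symbols were updated through the RefSeq annotation of GRCm38.p6 (12622 current, 3947 updated, 62 not matched, 6842 probes without a symbol). Log2 intensities were centred on each array's median. A linear model over all 6 arrays was fitted to every probe with limma 3.58.1 in R 4.3.3 (lmFit, eBayes), and the steps were tested on simulated data. A contrast was tested where all 4 of its arrays had a value, and p-values were adjusted over those probes (Benjamini-Hochberg, threshold 0.05). Log2 differences had a median standard error of 0.31. Figures were drawn with matplotlib 3.10.9.

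The members, roles and lists were chosen with earlier results of these data known. Any member could be named. Full values went to members past the threshold, to 14 genes fixed by name and to the 5 largest differences each way in a contrast. The alternatives were no centring, quantile normalization, an offset of 4, dropping the dimmest 25% of probes, a variance trend with robust eBayes, only the 4 arrays compared, the array number as a block, and each array left out. No probe sequences were used here.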

Additional observations from a re-analysis of the deposited data

How the results depend on the processing

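Between the MVH and IgG precipitates, where 6 centrosome probes were higher and 2 lower, the counts were 11 and 5 with an offset of 4, 10 and 5 with a variance trend, 8 and 5 without the dimmest 25% of probes (which leaves out Aspm and Tubgcp4 as too dim), 6 and 1 with no centring, 7 and 2 with quantile normalization, and 0 and 0 with only the 4 arrays compared, where 14 and 8 had an unadjusted p under 0.05. Over all probes, where 824 were higher and 895 lower, the same settings gave 1462 and 1605, 1507 and 1636, 1492 and 1624, 702 and 121, 1063 and 988, and 0 and 0. For the 14 and 8 at an unadjusted p, no share of all probes was counted with only those 4 arrays. For MVH against total RNA, where 0 passed, 2 were higher with no centring, 3 without the dimmest probes, 5 with a variance trend and 2 with the offset. Over all probes those settings called 14, 100, 132 and 72 higher, against 1. For IgG against total RNA, where 0 passed, 2 were higher with quantile normalization, 9 without the dimmest probes, 8 higher and 1 lower with an offset, and 8 higher with a variance trend, where 112, 773, 723 and 798 of all probes were higher, against 2. Leaving out each array in turn gave 0 to 5 higher and 0 to 2 lower between the precipitates, 0 to 1 higher and 0 lower for MVH against total RNA, and 0 either way for IgG against total RNA. For why the counts moved, the cause was not tested. With the array number as a replicate block, the counts were 8 and 3 between the precipitates, 0 and 0 for MVH against total RNA, and 5 and 1 for IgG against total RNA, and over all probes 1184 and 1239, 3 and 1, and 282 and 101. Between the precipitates the block added Cep19 (adjusted p = 0.0432), Cep55 (0.0364) and Cep135 (0.029, with differences of -0.95 and -1.79 within the numbers). The deviations of same-numbered arrays correlated at 0.157, 0.156 and 0.101 between the groups, over 2 numbers only, and the labels do not say that a number marks a shared animal or day. Across the single probes, no value that passed in any of the fits changed sign. Probes that are dim, such as Aspm and Tubgcp4, are limited by their closeness to the lowest values listed.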
